A study of Mus musculus with 12 samples.

Results

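The effect of the EuMyc transgene was measured in splenic B220+ cells labelled Max KO, by setting 3 EuMyc Max KO mice against 3 Max KO mice, which make up 6 of the 12 RNA-seq libraries of the series. The libraries were chosen by their genotype labels, and no measured value entered the choice. Each library holds cells of 1 mouse aged 4-5 weeks, isolated through B220, a CD45 isoform on the surface of B lineage cells. EuMyc Max KO mice carry the transgene, a Myc gene placed under the enhancer of the immunoglobulin heavy-chain locus and so active in B lineage cells, together with a conditional knockout of Max. Max KO mice carry the conditional knockout alone. The transgene effect with Max present comes from the other libraries of the series, 3 from EuMyc mice with wild-type Max and 3 from WT mice, and the pairs share no library. The labels call the transgenic cells premalignant. The sources used here give neither the Cre line nor the deleted part of Max.

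MYC is a transcription factor of the basic helix-loop-helix leucine zipper class that binds DNA as a dimer with MAX, at E-boxes whose preferred form is CACGTG. MAX is also the partner of the MXD proteins, MNT and MGA, which repress genes through the same sites, and MLX serves part of this network as a second dimerization partner. In mice, EuMyc expands cycling B cell precursors before monoclonal lymphomas appear.

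The promoters below are shown because they carry the E-box through which MYC and MAX are known to act, at genes of a MYC target list that was counted in these libraries. A promoter here is the 250 bases before the RefSeq start site on GRCm38.p6. Of 68 listed MYC target genes 62 had a promoter in the RefSeq table, and 13 of these (21.0%) held CACGTG, against 6.86% of all 27025 genes in that table and 9.98% of the 9855 tested genes with a promoter there. The share was 9.29% of the genes called higher in EuMyc Max KO against Max KO, and 10.6% of those called lower. The motif reads the same on both strands, so each match counts for both. Each of the 5 runs below is a stretch of 100 bases of the gene's own strand, 5′ to 3′, that overlaps no annotated exon, with the motif in capitals. They stand upstream of the RefSeq start site used for Ldha (lactate dehydrogenase A; chr7:46845612-46845711, plus strand), Cdk4 (the G1 cyclin-dependent kinase; chr10:127063343-127063442, plus strand), Eif4a1 (the cap-complex RNA helicase; chr11:69672560-69672659, minus strand), Phb (prohibitin; chr11:95666707-95666806, plus strand) and Tyms (thymidylate synthase; chr5:30073634-30073733, minus strand). GENCODE vM21 places the Ldha gene at chr7:46841475-46855627, so the Ldha window lies inside that gene model, between its exons.
Ldha: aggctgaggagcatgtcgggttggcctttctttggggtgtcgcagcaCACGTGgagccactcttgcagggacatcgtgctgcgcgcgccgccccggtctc
Cdk4: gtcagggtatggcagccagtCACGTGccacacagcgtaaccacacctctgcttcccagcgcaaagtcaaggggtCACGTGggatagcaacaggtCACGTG
Eif4a1: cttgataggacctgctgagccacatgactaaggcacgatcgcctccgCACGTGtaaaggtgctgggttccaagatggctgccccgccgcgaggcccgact
Phb: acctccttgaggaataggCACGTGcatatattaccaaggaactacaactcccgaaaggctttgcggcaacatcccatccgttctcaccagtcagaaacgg
Tyms: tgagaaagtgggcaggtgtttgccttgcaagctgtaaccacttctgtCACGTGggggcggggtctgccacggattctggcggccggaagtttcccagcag

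The libraries held 17890935 to 18668193 reads counted in genes in EuMyc Max KO and 14973332 to 17125122 in Max KO. Levels are given below in CPM, read counts scaled by TMM library size, which do not correct for gene length, so levels of different genes are not compared. A gene is called where edgeR's quasi-likelihood test gave a p below 0.05 after Benjamini-Hochberg adjustment over all 12878 genes tested. The EuMyc Max KO libraries did not look alike. The second principal component, which took 18% of the variance, put them at −73.1, −56.8 and −19.6, against 9.78, 2.51 and 20.5 for the Max KO libraries. EuMyc Max KO 1 and EuMyc Max KO 2 also had more reads mapped to more than 1 place, 27.9% and 27% of all reads, against 22.6% in EuMyc Max KO 3 and 21.4% to 23.1% in Max KO. The EuMyc Max KO 3 library lay nearest to the Max KO libraries on that component, so counts of called genes are also given for EuMyc Max KO 3 alone. The 10 genes of the B cell marker list summed to 7992, 8647 and 9688 CPM in EuMyc Max KO, against 10218, 9837 and 10839.7 CPM in Max KO. This sum does not show how pure the B220+ cells were. Lists of other cells, given below, held reads too, such as 14303 CPM for erythroid and 12377 CPM for monocyte and macrophage genes in EuMyc Max KO 1.

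Without Max, the transgene was accompanied by higher levels of 1378 genes and lower levels of 475. These are 10.7% and 3.69% of the genes tested, 14.4% together. The calls leaned on single libraries. Leaving out Max KO 1 left 884 higher and 187 lower calls, Max KO 2 left 1067 and 285, and Max KO 3 left 888 and 190. Leaving out EuMyc Max KO 1 left 949 and 121, EuMyc Max KO 2 left 908 and 149, and without EuMyc Max KO 3 there were 1837 and 1009. Of the genes called, 822 higher (6.38% of those tested) and 78 lower (0.606%), or 6.99% together, were also called in every fit that left out 1 EuMyc Max KO library. With EuMyc Max KO 3 as the only transgenic library, 518 genes were called higher (3.87% of 13401 tested) and 51 lower (0.381%), 4.25% together. That fit takes the lone library to vary like the other groups. The share of higher calls was 74.4%, and 63.6% with upper-quartile scaling (1215 higher, 695 lower).

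**Figure D1:**
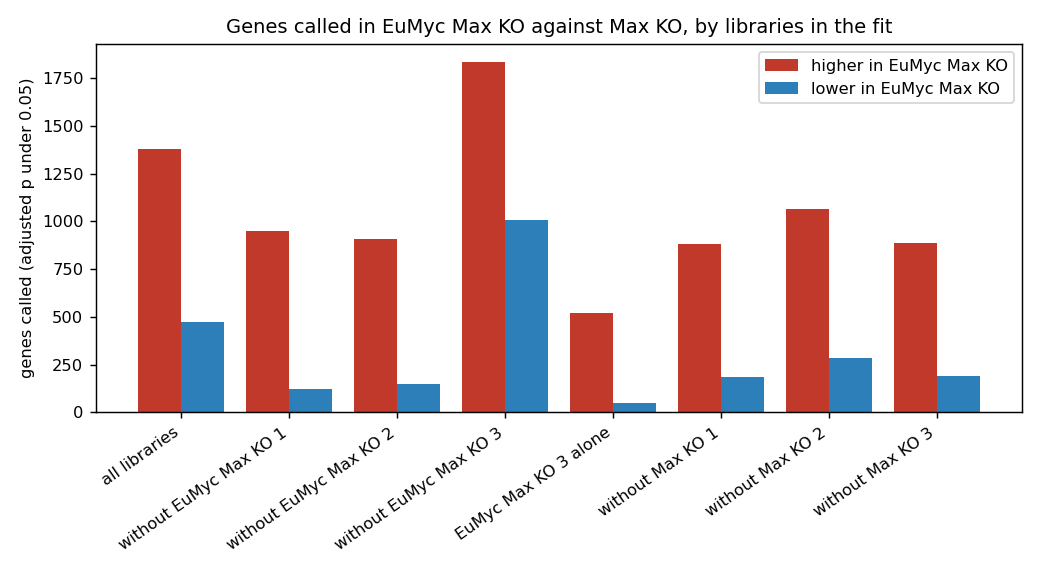
Number of genes called higher (red bars) and lower (blue bars) in EuMyc Max KO against Max KO, at an adjusted p below 0.05, for the fit to all libraries and for fits that leave libraries out. The lower calls range most, between 51 with EuMyc Max KO 3 alone and 1009 without it, against 475 with every library.

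Myc itself was several-fold above its level in Max KO cells, and Max was level across the 6 libraries. Myc (mm10 chr15:61985391-61990374, plus strand) stood at 514, 565 and 487 CPM in EuMyc Max KO, against 136, 124 and 119.8 CPM in Max KO. All transgenic libraries were far above all Max KO libraries, with little spread on either side. The log2 fold change was 2.05 ± 0.08 (SE, n = 3 mice each), with an adjusted p of 5.68e-08 in edgeR's quasi-likelihood test. Gene counts do not separate transgene from endogenous transcripts. With Max present, Myc averaged 1010.5 ± 37.1 CPM in EuMyc and 106 ± 9.37 CPM in WT (SD, n = 3 each), a log2 fold change of 3.26. The interaction term was −1.21 ± 0.11 on the log2 scale (SE), with an edgeR adjusted p of 2.33e-06, so the Myc difference was smaller without Max.

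Max (mm10 chr12:76937269-76962201, minus strand) stood at 108, 104 and 102 CPM in EuMyc Max KO, against 102, 102 and 99.8 CPM in Max KO. The libraries with wild-type Max averaged 128 ± 1.87 CPM in EuMyc and 119 ± 16.8 CPM in WT (SD, n = 3 each). The 6 knockout libraries kept Max reads, near the lowest WT library at 108 CPM. Which exons are deleted is not given, so a count over the whole gene does not check the knockout label, and every statement on Max KO below goes by the label.

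**Figure D2:**
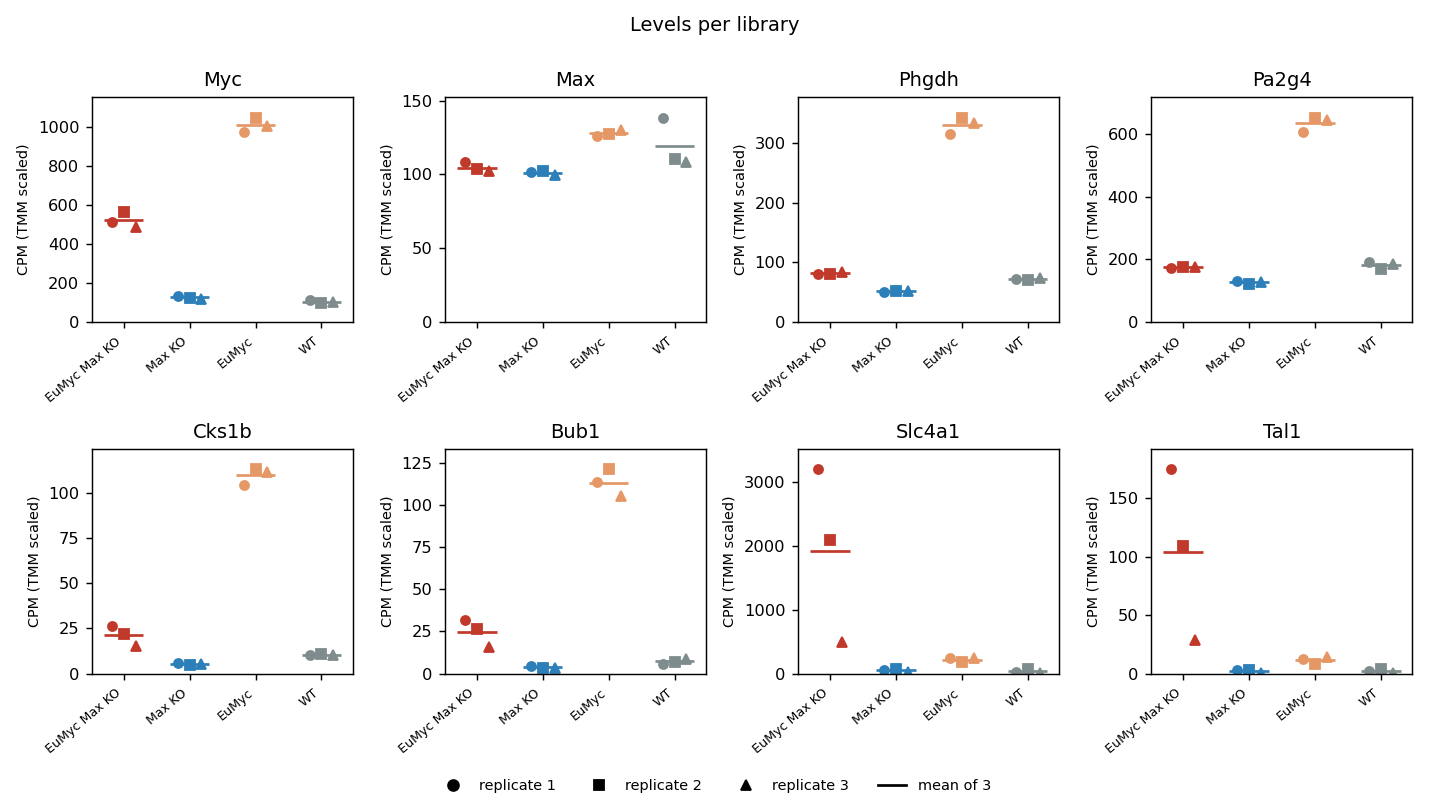
Levels in CPM of Myc, Max, Phgdh, Pa2g4, Cks1b, Bub1, Slc4a1 and Tal1 in each library (points), with the group mean (line) in the 4 genotypes. Myc, Phgdh and Pa2g4 are tight within each group, at 81.4, 80.7 and 83.9 CPM for Phgdh in EuMyc Max KO, while Slc4a1 runs through 3196, 2083 and 488 CPM in the same libraries.

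The 11 tested members of the MYC and MAX network had a median log2 fold change of 0.05 without Max, against −0.00 over all genes. Of the 11, 4 rose (36.4%, against 10.7% of all genes tested) and none fell. Besides Myc, the gene that the transgene carries, these were Mxd3, Mxd1 and Mxi1, all antagonists of MYC that pair with MAX. Mxd3 stood at 26.2, 16.6 and 5.51 CPM in EuMyc Max KO, against 1.58, 2.36 and 0.914 CPM in Max KO, a log2 fold change of 3.32 ± 0.53 (SE). The order of the transgenic libraries was that of their erythroid transcripts, described below, and all lay above all Max KO libraries. Mxd1 showed the same order, with 133, 89.4 and 34.9 CPM in EuMyc Max KO, against 19.3, 24.6 and 17.9 CPM in Max KO. On the log2 scale the change was 2.06 over all libraries and 0.76 with EuMyc Max KO 3 alone. Mxi1 had a log2 fold change of 1.05, and its call was lost without Max KO 3 (adjusted p = 0.053, edgeR) and with EuMyc Max KO 3 alone (adjusted p = 0.116, edgeR). Mnt and Mga, the other MAX-bound repressors, were not called, with log2 fold changes of −0.24 and −0.30. Mycl, a MYC paralogue, was at −0.80 with an edgeR adjusted p of 0.11, and Mlx, Mlxip and Mxd4 were not called either.

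Erythroid genes were among the largest increases and differed several-fold between mice of 1 group. Of 34 tested erythroid markers 32 rose (94.1%, against 10.7% of all genes tested) and none fell, with a median log2 fold change of 4.54. The medians of log2(CPM + 1) minus the Max KO mean were 4.69, 4.15 and 2.37 in EuMyc Max KO 1, 2 and 3. Slc4a1 (mm10 chr11:102348824-102366203, minus strand), the band 3 anion exchanger of the red cell membrane, stood at 3196, 2083 and 488 CPM in EuMyc Max KO, against 50.8, 71.5 and 28.3 CPM in Max KO. The transgenic libraries differed several-fold among themselves, and even the lowest lay above all Max KO libraries, as the rule that named the gene asked. The change on the log2 scale was 5.26 ± 0.94 (SE), with an adjusted p of 0.00784 in edgeR's test, and 3.28 with an adjusted p of 0.127 with EuMyc Max KO 3 alone.

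The genes of the erythroid transcription factors GATA1 and TAL1, Gata1 and Tal1, rose by 5.27 and 5.41 log2 units and were called with EuMyc Max KO 3 alone too, at 3.53 and 3.56. Gata1 stood at 53, 32.0 and 9.46 CPM in EuMyc Max KO, against 1.07, 1.28 and 0.114 CPM in Max KO. Tal1 stood at 175, 109 and 29.0 CPM in EuMyc Max KO, against 3.28, 3.13 and 0.971 CPM in Max KO. Both were named by a rule that asked for no overlap between the groups. Over all genes tested, 17.2% were higher in EuMyc Max KO without overlap.

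Several other high-ranked genes, which are not on the erythroid list, had the same library order. Trim58, a ubiquitin ligase gene of late erythroblasts, stood at 48.5, 27.8 and 7.02 CPM in EuMyc Max KO, against 0.565, 0.639 and 0.686 CPM in Max KO. Rgcc, a regulator of the cell cycle, had the largest log2 fold change of the genes named here with a mean of at least 5 CPM, 6.19 ± 0.66 (SE). It stood at 20.4, 10.1 and 5.56 CPM in EuMyc Max KO, against 0.282, 0.192 and 0 CPM in Max KO, so the fitted fold rests on a group at or near 0. Bcl2l1, which encodes the survival protein BCL-XL, stood at 139, 94.4 and 26.7 CPM in EuMyc Max KO, against 10.4, 12.5 and 10.0 CPM in Max KO. It was 1 of 2 members of the BCL2 family list that rose, of 15 tested (13.3%, near the 10.7% of all genes tested). Its log2 fold change was 2.98, and 1.28 with EuMyc Max KO 3 alone.

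Summed over the erythroid list, the transgenic libraries held 14303, 9726 and 2976 CPM, against 902, 1251 and 789 CPM in Max KO. In EuMyc mice with Max the sum was 1821 to 2090 CPM, and in WT 678 to 1128 CPM. Haemoglobin counts do not give a second measure here. Hba-a2, named with the other haemoglobin genes and Alas2 after their values were seen, held 149, 138 and 21 reads in EuMyc Max KO, against 11, 10 and 13 reads in Max KO, and Hbb-bt and Hbb-b2 held 0 in all 12 libraries. Alas2, which starts haem synthesis in red cell precursors, held 25969, 18099 and 6249 reads in EuMyc Max KO, against 1940, 5087 and 1799 reads in Max KO. It was not called (edgeR adjusted p = 0.0614). In these bulk samples more cells of a type and more RNA per cell cannot be told apart, nor can erythroid RNA in B220+ cells and erythroid cells among them.

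Mitotic genes rose throughout the list. Of 63 tested genes of G2 and mitosis 63 rose (100%, against 10.7% of all genes tested), with a median log2 fold change of 2.56. The fits that left out 1 of the 6 libraries called 61 to 63. Bub1 (mm10 chr2:127801122-127831865, minus strand), a spindle checkpoint kinase, stood at 31.9, 26.4 and 15.8 CPM in EuMyc Max KO, against 4.4, 3.58 and 3.37 CPM in Max KO. The groups were well apart, and EuMyc Max KO 3 was the lowest of the transgenic libraries. The log2 fold change was 2.70 ± 0.25 (SE), with an adjusted p of 0.00039 in edgeR's test. Cks1b, a cofactor of the SCF-SKP2 ubiquitin ligase that degrades p27, stood at 26.4, 21.9 and 15.4 CPM in EuMyc Max KO, against 5.87, 4.86 and 5.49 CPM in Max KO. On the log2 scale the change was 1.97, and 1.5 with EuMyc Max KO 3 alone. Nek2, a centrosome kinase, rose by 2.32 and Cdca2, a mitotic regulator of protein phosphatase 1, by 1.97 on the log2 scale.

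Replication genes followed at a smaller size. Of 55 tested genes of S phase and replication 47 rose (85.5%, against 10.7% of all genes tested) and none fell. The median log2 fold change was 0.91. The medians of log2(CPM + 1) minus the Max KO mean were 1.11, 0.84 and 0.57 in EuMyc Max KO 1, 2 and 3. Cdc6 (mm10 chr11:98907801-98923940, plus strand), which loads the MCM helicase at origins, stood at 45.6, 32.1 and 17.6 CPM in EuMyc Max KO, against 2.88, 3.20 and 2.46 CPM in Max KO. Mcm6, a subunit of that helicase, stood at 149.6, 141 and 97.5 CPM in EuMyc Max KO, against 49.2, 42.4 and 43.4 CPM in Max KO. Their log2 fold changes were 3.48 ± 0.33 and 1.52 ± 0.16 (SE), and neither gene overlapped between the groups. Of all genes tested, 17.2% were higher in EuMyc Max KO without overlap. Pole2, a subunit of DNA polymerase epsilon, rose by 1.57 and Gins2, a part of the CMG helicase, by 1.83 on the log2 scale.

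The cell cycle lists moved with the erythroid sum across the transgenic libraries. The summed level of G2 and mitosis genes was 6344, 4722 and 2519 CPM in EuMyc Max KO, against 1058, 1032 and 971 CPM in Max KO. The per-library medians of the same list, as log2(CPM + 1) minus the Max KO mean, were 2.79, 2.22 and 1.53. The part of erythroid RNA in the cell cycle genes was not tested. With Max present the same sum was 12968 to 14622 CPM in EuMyc and 1560 to 1676 CPM in WT, with an erythroid sum below that of each EuMyc Max KO library.

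The MYC target list rose in part and by small amounts. Of 68 tested MYC target genes 31 rose (45.6%, against 10.7% of all genes) and none fell, with a median log2 fold change of 0.23. Of these, 19 were called with EuMyc Max KO 3 alone, and the fits that left out 1 of the 6 libraries called between 20 (without Max KO 1) and 30 (without EuMyc Max KO 3). The per-library medians were 0.18, 0.25 and 0.23. The summed level was 10152, 10026 and 9793 CPM in EuMyc Max KO, against 8085, 7976 and 8244 CPM in Max KO. The sums had the library order of the erythroid genes and the medians did not, and the part of erythroid RNA in this list was not tested. Every transgenic library was above every Max KO library. With Max present the sum was 24309 to 26717 CPM in EuMyc and 8745 to 9850 CPM in WT, so the EuMyc Max KO sums lay at or just above the upper end of the WT range.

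Pa2g4 (mm10 chr10:128557766-128565987, minus strand), a growth regulator that binds ErbB3, stood at 173, 177 and 176 CPM in EuMyc Max KO, against 131, 122 and 129 CPM in Max KO. The change on the log2 scale was 0.46 ± 0.06 (SE), with an adjusted p of 0.000559 in edgeR's test, and 0.47 with EuMyc Max KO 3 alone. Srm, spermidine synthase, stood at 45.9, 47.4 and 48.9 CPM in EuMyc Max KO, against 32.6, 32.6 and 31.9 CPM in Max KO. In both genes the libraries of a group nearly coincide and the groups stay apart. Bcat1, the cytosolic branched-chain aminotransferase, stood at 7.68, 7.67 and 6.50 CPM in EuMyc Max KO, against 0.678, 0.895 and 0.400 CPM in Max KO, a log2 fold change of 3.47 ± 0.38 (SE). Kpna2, an importin, rose by 0.95 on the log2 scale, or 0.62 with EuMyc Max KO 3 alone.

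Among the 13 MYC target genes with CACGTG in the promoter 8 rose, with a median log2 fold change of 0.28. Among the 49 without it 20 rose, with a median of 0.22. These sets were not tested against each other, and 10.7% of all genes tested rose. Of the 5 genes whose promoters are printed above, chosen for their sequence windows and not for their values, Cdk4 rose by 0.38, Eif4a1 by 0.38 and Tyms by 1.74 on the log2 scale. Cdk4 stood at 125, 121 and 119 CPM in EuMyc Max KO, against 91.6, 97.3 and 91.8 CPM in Max KO. Ldha was called at 0.28, but not when any 1 of the 6 libraries except EuMyc Max KO 3 was left out, where its edgeR adjusted p ran between 0.0542 and 0.102. Phb, at 0.15, was not called. With Max present the 5 genes were higher in EuMyc than in WT by 2.02 (Ldha), 1.85 (Cdk4), 1.37 (Eif4a1), 1.36 (Phb) and 2.93 (Tyms) on the same scale.

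Serine, folate and nucleotide genes rose in part. Of 15 tested genes of serine and folate metabolism 6 rose (40%, against 10.7% of all genes tested) and none fell. The median log2 fold change was 0.21. Phgdh (mm10 chr3:98313170-98339990, minus strand), which starts serine synthesis, stood at 81.4, 80.7 and 83.9 CPM in EuMyc Max KO, against 51.2, 51.3 and 51.4 CPM in Max KO. The values within each group were almost identical. The log2 fold change was 0.68 ± 0.05 (SE), with an adjusted p of 3.58e-05 in edgeR's test, and 0.70 with EuMyc Max KO 3 alone. Psat1, the next enzyme of the pathway, rose by 0.58 and Mthfd2, the mitochondrial folate enzyme, by 0.86.

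Of 32 tested genes of nucleotide synthesis 14 rose (43.8%, against 10.7% of all genes tested) and none fell, with a median of 0.22. Uck2, a uridine-cytidine kinase, stood at 12.7, 14.2 and 13.9 CPM in EuMyc Max KO, against 4.01, 5.5 and 5.31 CPM in Max KO, a log2 fold change of 1.46 ± 0.12 (SE). The groups were clearly apart, and the transgenic libraries did not follow the erythroid order. Rrm1 and Dut, which supply deoxynucleotides in S phase, rose by 1.07 and 0.93 on the log2 scale. Of 23 tested glycolysis genes 7 rose (30.4%) and 1 fell (4.35%, against 3.69% of all genes tested). When any 1 of the 6 libraries except EuMyc Max KO 3 was left out, 3 to 5 were called higher. Tpi1, triosephosphate isomerase, rose by 0.47 and Pfkm, a phosphofructokinase, by 1.12. Slc16a1, the lactate and pyruvate transporter MCT1, stood at 214, 149 and 67.6 CPM in EuMyc Max KO, against 31.6, 26.7 and 24.6 CPM in Max KO. That gene did follow the erythroid order, at a log2 fold change of 2.38 over all libraries and 1.29 with EuMyc Max KO 3 alone.

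Few ribosome biogenesis genes were called, in a group that is a textbook MYC output. Of 82 tested members 3 rose and none fell, which at 3.66% is below the 10.7% of all genes called higher, and the median log2 fold change of 0.02 became −0.02 with upper-quartile scaling and −0.00 with library totals. The count was 1 or 2 when any 1 of the 6 libraries was left out. With Max present 79 of the 82 rose in EuMyc, against 36.7% of all genes tested, with a median of 0.72. Rcl1, a factor of small-subunit rRNA processing, was among the 3, at 76.0, 77.8 and 87.1 CPM in EuMyc Max KO, against 52.2, 48.8 and 46.0 CPM in Max KO. This gave a log2 fold change of 0.71 ± 0.09 (SE), with an adjusted p of 0.000527 in edgeR's test. The groups stay apart, with EuMyc Max KO 3 the highest library.

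Genes of mitochondria, protein synthesis, the proteasome and splicing had small median changes, and their counts depended on single libraries. Of 63 tested genes of oxidative phosphorylation 30 rose (47.6%, against 10.7% of all genes tested) and none fell, with a median of 0.22. The count was 10 without Max KO 1, 13 without Max KO 3, 12 without EuMyc Max KO 1 and 14 without EuMyc Max KO 2. Cycs, cytochrome c, stood at 58.3, 59.2 and 64.1 CPM in EuMyc Max KO, against 42.0, 45.1 and 43.8 CPM in Max KO. The gene rose by 0.47 ± 0.06 on the log2 scale (SE), and its call remained in all fits that left out 1 of the 6 libraries. Of 79 tested cytosolic ribosomal protein genes, whose reads can be shared with near-identical copies, 15 rose (19%) and none fell, with a median of 0.19. That count was 2 without Max KO 1, 5 without Max KO 2, 5 without Max KO 3 and 3 without EuMyc Max KO 2, and 32 with DESeq2.

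Of 43 tested proteasome and chaperone genes 16 rose (37.2%) and none fell. When any 1 of the 6 libraries except EuMyc Max KO 3 was left out, 7 to 9 were called. Hspd1, the mitochondrial chaperone HSP60, stood at 227, 238 and 233 CPM in EuMyc Max KO, against 166, 161 and 175 CPM in Max KO. Of 44 tested translation factors and tRNA synthetases 13 rose (29.5%) and none fell. When any 1 of the 6 libraries except EuMyc Max KO 3 was left out, 5 to 8 were called. Of 43 tested spliceosome genes 8 rose (18.6%) and none fell. The count was 2 without Max KO 1 and 4 without Max KO 3 or EuMyc Max KO 2. Snrpf, a core Sm protein, rose by 0.61. Of 38 tested genes of mitochondrial translation and import 6 rose (15.8%, against 10.7% of all genes tested) and none fell. Without Max KO 1 the count was 3. Tomm20, the import receptor of the outer membrane, rose by 0.34.

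**Figure D3:**
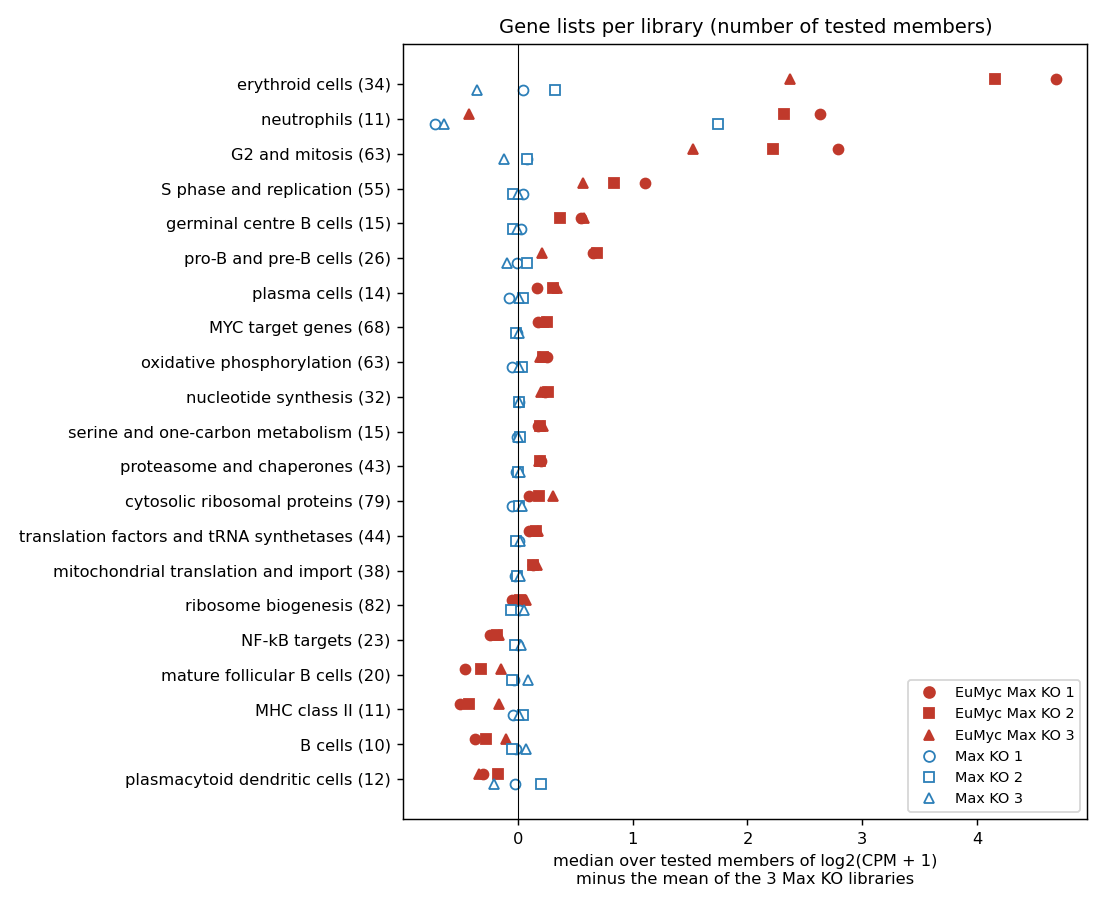
Median over the tested members of each gene list of log2(CPM + 1) minus the mean of the 3 Max KO libraries, for each EuMyc Max KO and Max KO library (points). Erythroid genes lie at 4.69, 4.15 and 2.37 and G2 and mitosis genes at 2.79, 2.22 and 1.53 in EuMyc Max KO 1, 2 and 3, while MYC target genes lie at 0.18, 0.25 and 0.23.

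Genes of the p53 and ARF list changed in both directions. Of 27 tested genes 5 rose (18.5%) and 2 fell (7.41%), against 10.7% and 3.69% of all genes tested, with a median of 0.03. Without Max KO 1 the higher count was 3, and the lower count was 0 without EuMyc Max KO 1 or EuMyc Max KO 2, 1 without any 1 Max KO library and 3 without EuMyc Max KO 3. Cdkn2a, which encodes p16 and the MDM2 inhibitor p19ARF, stood at 0.433, 0.877 and 1.77 CPM in EuMyc Max KO, against 0.226, 0.0639 and 0.0571 CPM in Max KO. All values are low, EuMyc Max KO 3 is the highest, and the groups do not overlap. The change on the log2 scale was 3.06 ± 0.66 (SE), with an adjusted p of 0.0092 in edgeR's test. In EuMyc mice with Max, Cdkn2a averaged 7.91 ± 1.57 CPM, against 0.173 ± 0.114 CPM in WT (SD, n = 3 each).

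Cdkn1a, the p21 inhibitor of cyclin-dependent kinases, stood at 4.17, 3.45 and 2.76 CPM in EuMyc Max KO, against 0.621, 0.895 and 1.31 CPM in Max KO. Its log2 fold change of 1.87 was not called without Max KO 1 (edgeR adjusted p = 0.051) or with EuMyc Max KO 3 alone (edgeR adjusted p = 0.166). Gadd45a, a stress and DNA damage gene, stood at 48.1, 35.2 and 15.8 CPM in EuMyc Max KO, against 10.1, 10.1 and 8.34 CPM in Max KO, in the erythroid order. On the log2 scale the change was 1.8 over all libraries and 0.73 with EuMyc Max KO 3 alone. Trp53 itself, named after its values were seen, stood at 122, 133 and 125 CPM in EuMyc Max KO, against 137, 125 and 119 CPM in Max KO, where the groups overlapped.

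Germinal centre genes rose in part without Max, although most of the list was lower with the transgene when Max was present. Of 15 tested germinal centre genes 7 rose (46.7%, against 10.7% of all genes tested) and none fell. The median log2 fold change was 0.96. The fits that left out 1 of the 6 libraries called 7 or 8. With Max present 2 rose and 11 fell in EuMyc against WT, with a median of −2.13. In that comparison 36.7% of all genes tested rose and 34.9% fell. The per-library medians without Max were 0.55, 0.36 and 0.58, so EuMyc Max KO 3 was the highest and the order was not the erythroid one.

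S1pr2 (mm10 chr9:20962361-20976781, minus strand), a sphingosine phosphate receptor that holds B cells in the follicle, stood at 6.49, 4.11 and 6.39 CPM in EuMyc Max KO, against 1.81, 1.79 and 1.49 CPM in Max KO. This gave a log2 fold change of 1.74 ± 0.20 (SE), with an adjusted p of 0.000431 in edgeR's test, and −2.15 with Max present, where EuMyc averaged 3.06 CPM and WT 13.6 CPM. Mybl1, a transcription factor of dark-zone B cells, stood at 8.87, 7.13 and 8.94 CPM in EuMyc Max KO, against 2.48, 1.53 and 2.74 CPM in Max KO. Its log2 fold change was 1.87, and WT averaged 16.7 CPM. For S1pr2 and Mybl1 the WT mean thus lay above every library of both groups without Max. Ezh2, the histone H3 lysine methyltransferase, rose by 0.96, or by 0.59 with EuMyc Max KO 3 alone. It averaged 66.6 CPM in EuMyc Max KO, 34.2 CPM in Max KO and 38.8 CPM in WT. Neither S1pr2 nor Mybl1 overlapped between the groups, where 17.2% of all genes tested were higher without overlap.

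Gcsam, Eaf2 and Nuggc, also called, were chosen for naming after their values were seen, as was Bcl6. Gcsam, a germinal centre signalling adaptor, stood at 4.06, 3.07 and 5.46 CPM in EuMyc Max KO, against 1.52, 2.05 and 1.14 CPM in Max KO. Its log2 fold change was 1.42, and −5.04 with Max present, where EuMyc averaged 0.329 CPM and WT 10.9 CPM. Eaf2, an elongation factor partner, stood at 3.79, 5.81 and 8.42 CPM in EuMyc Max KO, against 2.20, 2.36 and 2.63 CPM in Max KO, a log2 fold change of 1.32. Nuggc, a nuclear GTPase of germinal centre B cells, stood at 3.25, 1.26 and 4.47 CPM in EuMyc Max KO, against 0.113, 0 and 0 CPM in Max KO. WT averaged 10.7 CPM for Eaf2 and 7.72 CPM for Nuggc. For Gcsam, Eaf2 and Nuggc the WT mean lay above every library of both groups without Max. Bcl6, the master repressor of the germinal centre programme, was not called, at 63.9, 62.5 and 67.4 CPM in EuMyc Max KO, against 78.0, 72.4 and 88.5 CPM in Max KO. It was lower in every transgenic library, at a log2 fold change of −0.30 with an edgeR adjusted p of 0.0703.

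Genes of plasma cells rose in part. Of 14 tested members 4 rose (28.6%, against 10.7% of all genes tested) and none fell, with a median of 0.36, and 1 was called with EuMyc Max KO 3 alone. Fkbp11, a chaperone of the secretory pathway, stood at 2.71, 4.88 and 8.21 CPM in EuMyc Max KO, against 1.19, 1.34 and 0.457 CPM in Max KO. On the log2 scale the change was 2.41 ± 0.47 (SE), with an adjusted p of 0.00565 in edgeR's test. EuMyc Max KO 3, the library with the fewest erythroid transcripts, had the highest level. Without Max KO 1 the count was 1, and it was 2 without Max KO 2, EuMyc Max KO 1 or EuMyc Max KO 2. Jchain, the joining chain of secreted IgM and IgA, named after its values were seen, stood at 266, 330.3 and 664 CPM in EuMyc Max KO, against 73.8, 187 and 106 CPM in Max KO. It was not called (edgeR adjusted p = 0.102), although the groups did not overlap.

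**Figure D4:**
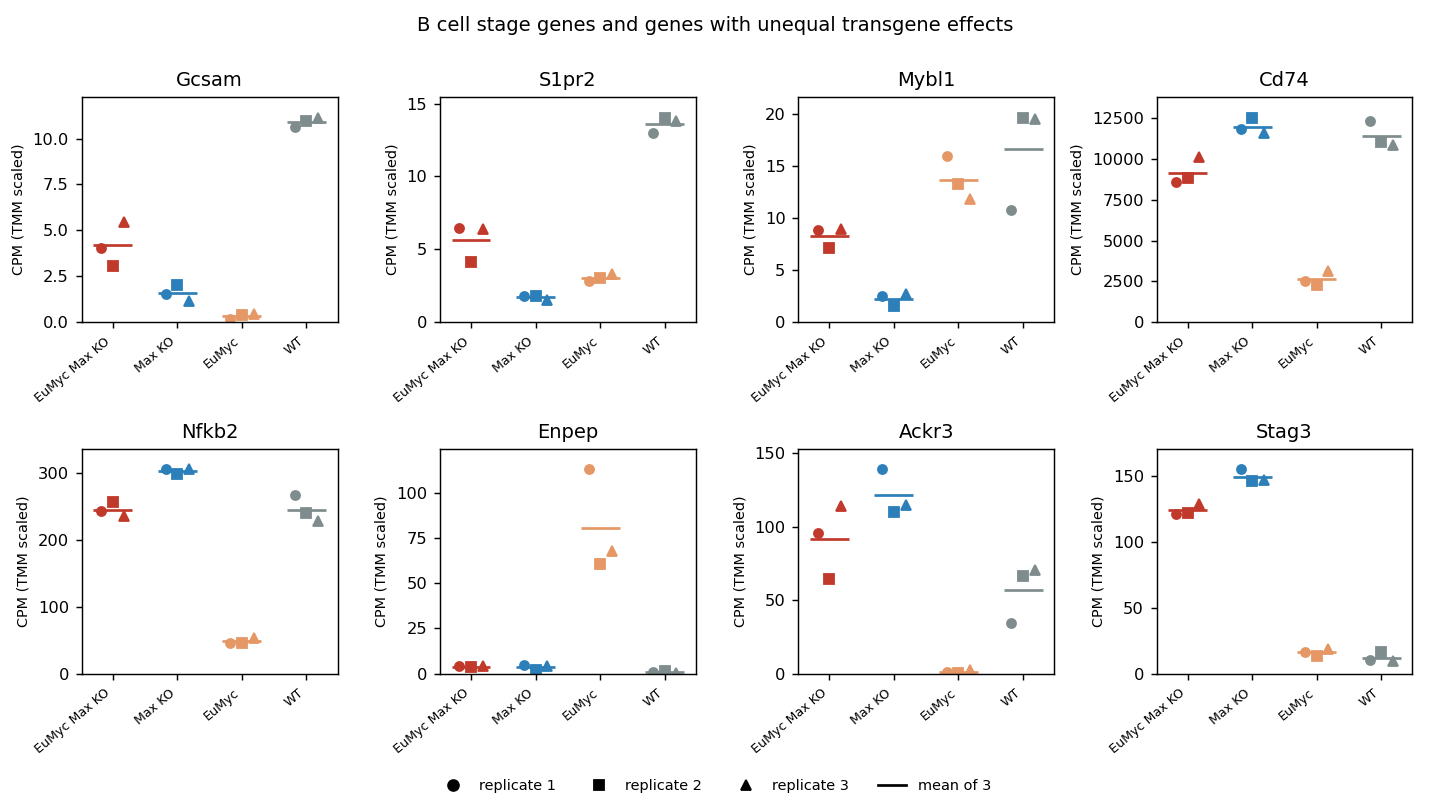
Levels in CPM of Gcsam, S1pr2, Mybl1, Cd74, Nfkb2, Enpep, Ackr3 and Stag3 in each library (points) with the group mean (line), for EuMyc Max KO, Max KO, EuMyc and WT. Gcsam, S1pr2 and Mybl1 are higher in EuMyc Max KO than in Max KO without overlap, and Cd74 and Nfkb2 are far lower in EuMyc, at means of 2648 and 49.0 CPM, than in the other groups.

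Genes of early B cell stages rose in part. Among 26 tested genes of pro-B and pre-B cells 12 rose (46.2%, against 10.7% of all genes tested) and none fell. Their median was 0.63, and 4 were called with EuMyc Max KO 3 alone. Without Max KO 1 the count was 6, and 7 without Max KO 3, EuMyc Max KO 1 or EuMyc Max KO 2. Bub1b, a member that rose by 2.75 on the log2 scale, is also on the list of G2 and mitosis. The part of cycling cells in this count was not tested. Myb, a transcription factor of progenitors, stood at 71.8, 70.5 and 57.1 CPM in EuMyc Max KO, against 43.4, 41.9 and 44.3 CPM in Max KO. Sox4, which acts in early B cells, stood at 22.5, 27.7 and 23.0 CPM in EuMyc Max KO, against 17.4, 14.9 and 16.4 CPM in Max KO. Both genes were higher in all transgenic libraries, by 0.62 and 0.58 on the log2 scale, against 3.28 and 3.26 with Max present. For Myb the value was 0.40 with EuMyc Max KO 3 alone.

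The recombinase genes showed how strongly single mice entered. Rag1, named with Rag2 and Igll1 after their values were seen, stood at 16.1, 11.9 and 2.29 CPM in EuMyc Max KO, against 0.113, 1.85 and 0.457 CPM in Max KO. The call, at a log2 fold change of 3.69, was lost when any 1 of Max KO 1, Max KO 3, EuMyc Max KO 1 or EuMyc Max KO 2 was left out, and its edgeR adjusted p was 0.583 with EuMyc Max KO 3 alone. Rag2 stood at 3.19, 2.91 and 0.104 CPM in EuMyc Max KO, against 0.0565, 0.128 and 0 CPM in Max KO. Its EuMyc Max KO 3 value lay within the Max KO range. Igll1, a surrogate light chain gene, stood at 7.52, 7.89 and 0.884 CPM in EuMyc Max KO, against 0.113, 0.384 and 0 CPM in Max KO. For Rag2 and Igll1 too the calls were lost without EuMyc Max KO 1 and without EuMyc Max KO 2. With Max present Rag1 averaged 337 ± 42.8 CPM in EuMyc and 2.84 ± 1.22 CPM in WT (SD, n = 3 each).

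Genes of mature B cells fell in part and by small amounts. Of 11 tested MHC class II genes 4 fell (36.4%, against 3.69% of all genes tested) and none rose, with a median of −0.39, and none was called with EuMyc Max KO 3 alone. The per-library medians were −0.51, −0.43 and −0.16. Cd74, the invariant chain, stood at 8573, 8816 and 10116 CPM in EuMyc Max KO, against 11819.5, 12548 and 11578 CPM in Max KO. Its call, at −0.39 with an edgeR adjusted p of 0.0342, was lost in every fit that left out 1 of the 6 libraries except EuMyc Max KO 3, with adjusted p of up to 0.121. H2-DMb1, a peptide exchange chain, was called in all of those fits, and stood at 124, 129 and 141 CPM in EuMyc Max KO, against 168, 196 and 162 CPM in Max KO, a log2 fold change of −0.41. Without EuMyc Max KO 3, 9 of the 11 genes were called lower, and 1 or 2 without any other single library.

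Follicular B cell genes fell at 5 of 20 tested (25%), genes of the B cell receptor and its coreceptors at 3 of 23 (13%), and marginal zone genes at 3 of 20 (15%), where 1 more rose, against 3.69% of all genes tested. Their medians were −0.31, −0.21 and −0.04, and without EuMyc Max KO 3 the follicular count was 9 and the receptor count 8. Without Max KO 3, EuMyc Max KO 1 or EuMyc Max KO 2 the follicular count was 1 and the receptor count 0. Notch2, the receptor needed for marginal zone B cells, stood at 379.8, 408 and 405 CPM in EuMyc Max KO, against 524, 480.1 and 552 CPM in Max KO. Of 19 B lineage transcription factors 1 rose (5.26%) and 2 fell (10.5%). Pax5, the B cell identity factor, stood at 169.8, 187 and 209.8 CPM in EuMyc Max KO, against 238, 231 and 225 CPM in Max KO. The call, at −0.29 on the log2 scale, was lost without Max KO 1, Max KO 2, EuMyc Max KO 1 or EuMyc Max KO 2. Of 23 tested NF-kB targets 4 fell (17.4%) and none rose, with 7 lower without EuMyc Max KO 3 and 1 or 2 without any other single library. Nfkb2, the p100 subunit gene, stood at 244, 257 and 236 CPM in EuMyc Max KO, against 306, 299 and 306 CPM in Max KO, a log2 fold change of −0.31. The B cell marker sum given with the libraries was lower in every EuMyc Max KO library than in every Max KO library, and it ran opposite to the erythroid sum across the transgenic libraries. The part of that sum in the lower B cell genes was not tested.

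Lectin genes known from dendritic cells and macrophages were among the largest decreases, of which Clec9a is on the marker list and Cd209d and Clec10a are not. Cd209d, a lectin gene of the SIGN family, stood at 3.52, 3.73 and 3.28 CPM in EuMyc Max KO, against 15.4, 32.7 and 17.7 CPM in Max KO. This gave a log2 fold change of −2.64 ± 0.37 (SE), with an adjusted p of 0.00119 in edgeR's test. Clec10a, a galactose-type lectin of dendritic cells and macrophages, stood at 2.98, 2.47 and 1.66 CPM in EuMyc Max KO, against 6.55, 13.0 and 6.40 CPM in Max KO. Clec9a, a receptor of cross-presenting dendritic cells, stood at 3.90, 3.45 and 4.00 CPM in EuMyc Max KO, against 10.6, 13.4 and 8 CPM in Max KO. The rule that named these genes asked for no overlap between the groups. Over all genes tested, 15.1% were lower in EuMyc Max KO without overlap. For each of the lectin genes Max KO 2 was the highest library.

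Over the marker lists, 2 of 10 tested genes of conventional dendritic cells (20%) and 2 of 12 of plasmacytoid dendritic cells (16.7%) fell. Over all genes tested 3.69% fell. The list medians were −0.11 and −0.34 on the log2 scale. Per library, the conventional medians were 0.09, −0.06 and −0.35 in EuMyc Max KO 1, 2 and 3. The summed levels were 255 to 277 CPM in EuMyc Max KO, against 284 to 331 CPM in Max KO, for conventional, and 1196 to 1206 CPM, against 1371 to 1677 CPM, for plasmacytoid dendritic cells. Siglech, a lectin of plasmacytoid dendritic cells, which carry B220, stood at 55.2, 50.6 and 33.8 CPM in EuMyc Max KO, against 92.1, 161 and 88.1 CPM in Max KO. Its log2 fold change of −1.29 was not called without EuMyc Max KO 2 (edgeR adjusted p = 0.054).

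Among other genes that fell, Phf1, a Polycomb-associated reader protein, stood at 81.9, 84.9 and 89.1 CPM in EuMyc Max KO, against 129.9, 134 and 126 CPM in Max KO. The groups were tight, and the rule that named the gene asked that they be apart. The log2 fold change was −0.61 ± 0.08 (SE), and −0.55 with EuMyc Max KO 3 alone. Rhbdf1, an inactive rhomboid protein gene, fell by 0.83 on the log2 scale, and Csf2rb2, a receptor chain for IL-3, by 1.11. Ptprf, a receptor phosphatase, fell by 1.66. Fanca, of the Fanconi anaemia DNA repair complex, stood at 15.8, 20.4 and 20.7 CPM in EuMyc Max KO, against 30.5, 25.3 and 35.6 CPM in Max KO. Its log2 fold change was −0.69 without Max and 0.96 with Max, each called. With EuMyc Max KO 3 alone Cd209d, Clec9a, Csf2rb2 and Fanca were not called, at edgeR adjusted p of 0.0709, 0.0835, 0.0636 and 0.0685.

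Markers of other blood cells were measured beside these results. The summed neutrophil list was 303, 278 and 37.4 CPM in EuMyc Max KO, against 30.2, 177 and 27.1 CPM in Max KO, and none of 11 tested members was called by edgeR or DESeq2, with 2 at an unadjusted p below 0.05. S100a9, a member of that list, stood at 76.3, 70.7 and 6.91 CPM in EuMyc Max KO, against 4.63, 46.7 and 4.23 CPM in Max KO. The monocyte and macrophage sum was 6511 to 12377 CPM in EuMyc Max KO, against 6459 to 9205 CPM in Max KO, the T cell sum 246 to 261 CPM, against 232 to 283 CPM, and the NK cell sum 82.7 to 115 CPM, against 71.7 to 111 CPM. None of the 22, 19 and 13 tested members of these lists was called by edgeR, and 2, 3 and 2 had an unadjusted p below 0.05. DESeq2 called none of the first list, 1 T cell gene higher and 1 NK cell gene lower. limma-voom with quality weights called 2 neutrophil and 2 monocyte and macrophage genes higher, 1 T cell gene higher and 3 lower, and 1 NK cell gene lower. Without EuMyc Max KO 3, edgeR called 2 neutrophil and 4 monocyte and macrophage genes higher, and 1 T cell gene higher and 2 lower. The part of these cells in the results was not tested.

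The genes called with Max had smaller transgene differences without it. With Max present 4730 genes were higher in EuMyc than in WT (36.7% of those tested) and 4495 lower (34.9%), 71.6% together. Over the 4730 genes the median log2 fold change was 0.12 without Max and 0.82 with it, and over the 738 of them above 2 with Max it was 1.26 without Max and 2.91 with it. Over the 4495 lower genes the median was −0.14 without Max and −0.94 with it. The genes were chosen by the comparison with Max, so these medians are a description with no test. Of the 1378 genes called higher without Max, 1047 (76%) were called higher with Max, 271 (19.7%) were not called and 60 (4.35%) were called lower. They make up 22.1% of the 4730. Of the 475 lower genes 407 (85.7%) were also lower with Max, or 9.05% of the 4495. Across all 12878 genes the log2 fold changes had a Pearson r of 0.495 and a Spearman rho of 0.508, and r was 0.439 with EuMyc Max KO 3 alone. Genes are not independent replicates, and no p is given.

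**Figure D5:**
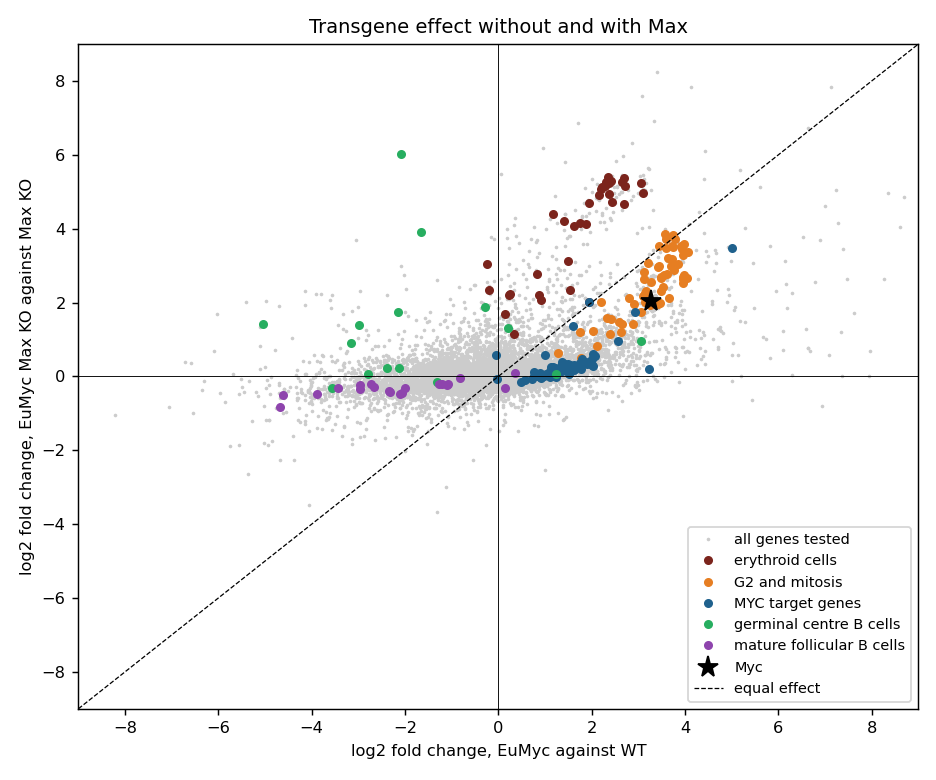
Log2 fold change of each tested gene for EuMyc against WT (x axis) and for the transgene without Max, EuMyc Max KO against Max KO (y axis), with 5 gene lists and Myc marked, a dashed line of equal change, and 2 genes outside the axes. The 4730 genes higher in EuMyc than in WT lie at a median of 0.12 on the y axis and 0.82 on the x axis, and erythroid genes such as Slc4a1 (5.26 without Max, 2.64 with Max) lie above the line.

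The difference between the transgene effects was tested as an interaction term in the same edgeR model. It was called for 7175 genes (55.7% of those tested), higher without Max for 3586 (27.8%) and lower for 3589 (27.9%). In every fit that left out 1 EuMyc Max KO library 3071 of the higher (23.8%) and 3190 of the lower calls (24.8%) were made again. It was lower for 62 of 68 MYC target genes, 79 of 82 ribosome biogenesis genes, 62 of 63 oxidative phosphorylation genes and 49 of 55 S phase genes. The medians of the term were −1.17, −0.72, −0.72 and −1.24, against 0.02 over all genes. For Phgdh the term was −1.5 ± 0.07 (SE) with an edgeR adjusted p of 3.81e-08, for Pa2g4 −1.34, for Cycs −1.18 and for Cks1b −1.45. Among genes of G2 and mitosis 28 of 63 were called lower, with a median of −0.82.

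The lists of mature B cells, lower with the transgene when Max was present, ran the other way. The interaction was higher for 11 of 11 MHC class II genes, 22 of 23 NF-kB targets, 18 of 20 follicular genes, 17 of 20 marginal zone genes and 13 of 15 germinal centre genes. Over all genes tested it was higher for 27.8%. For Cd74 the term was 1.72 ± 0.16 and for Nfkb2 2.02 ± 0.10 (SE). T cell markers showed it too, with 19 of 19 higher and a median of 2.75. Their sum was 246 to 261 CPM in EuMyc Max KO and 232 to 283 CPM in Max KO, against 40.5 to 44.6 CPM in EuMyc and 161 to 202 CPM in WT, and the part of the cell mixture in the interaction was not tested.

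Enpep, Rbm24, Uchl1 and Ltbp4, among the largest negative interactions, rose in EuMyc against WT and were not called in EuMyc Max KO against Max KO. Enpep (mm10 chr3:129269175-129332720, minus strand), the aminopeptidase BP-1 of pre-B cells, averaged 80.6 ± 28.4 CPM in EuMyc and 1.01 ± 0.505 CPM in WT (SD, n = 3 each). It stood at 4.00, 3.45 and 4.11 CPM in EuMyc Max KO, against 4.91, 1.79 and 4.46 CPM in Max KO, where the groups overlapped. The interaction was −6.26 ± 0.60 (SE), with an edgeR adjusted p of 1.29e-05. Rbm24, an RNA-binding protein gene, Uchl1, a ubiquitin hydrolase, and Ltbp4, a TGF-beta binding protein, followed at −6.16, −5.30 and −4.54. Ltbp4 stood at 2.38, 1.70 and 1.92 CPM in EuMyc Max KO, against 1.52, 1.02 and 1.43 CPM in Max KO, and averaged 105 CPM in EuMyc and 3.00 CPM in WT.

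Other large positive terms belonged to genes with very low levels in EuMyc with Max. Ackr3, an atypical receptor for CXCL12, stood at 95.6, 64.5 and 114 CPM in EuMyc Max KO, against 139, 110.3 and 115 CPM in Max KO, and averaged 1.30 ± 0.820 CPM in EuMyc and 57.0 ± 19.8 CPM in WT (SD, n = 3 each). The interaction was 5.04 ± 0.56 (SE). Abcb1a, the P-glycoprotein transporter, stood at 5.95, 7.02 and 7.85 CPM in EuMyc Max KO, against 8.41, 7.93 and 8.97 CPM in Max KO, with a term of 5.21. Fras1, an extracellular matrix gene, had a term of 5.47. Its own difference without Max, 1.05 with an edgeR adjusted p of 0.0376, was lost in every fit that left out 1 of the 6 libraries except EuMyc Max KO 3.

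Germline genes that MAX and MGA are known to repress were not called with the transgene without Max. Of 11 tested members none was called by edgeR or DESeq2, and 1 had an unadjusted p below 0.05. Their median was −0.21. limma-voom with quality weights called 1 higher and 2 lower. Stag3, the meiotic cohesin subunit, stood at 121, 122 and 129 CPM in EuMyc Max KO, against 155, 146 and 147 CPM in Max KO, and averaged 16.4 ± 2.54 CPM in EuMyc and 12.1 ± 3.97 CPM in WT (SD, n = 3 each). All knockout libraries were far above all libraries with Max, and the transgenic ones were the lower of the knockouts, at a log2 fold change of −0.27 with an edgeR adjusted p of 0.288. Of 26 listed genes with a RefSeq promoter 12 (46.2%) held CACGTG.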

How the data were processed

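RNA from B220+ splenocytes was sequenced in 12 libraries, 3 mice per genotype, per the labels. The authors deposited raw read counts for each gene symbol, made with TopHat2 2.1.0 and HTSeq 0.6.1 on mm10 after bcl2fastq 1.8.4, per the submitters' processing notes. The sources used here do not give the annotation or the strand setting of the counting, so reads of overlapping or antisense genes cannot be told apart. The 5 summary rows that name no gene stayed out of library sizes and tests. Reads outside annotated genes were 15.0% to 18.5% of all in EuMyc Max KO and 19.6% to 20.3% in Max KO.

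Analysis of the counts used R 4.3.3 with edgeR 4.0.16 (filterByExpr, TMM, glmQLFit with robust dispersions, glmQLFTest) and limma 3.58.1. The filter kept 12878 of 24421 genes. All 12 libraries entered 1 model with 8 residual degrees of freedom and a common biological coefficient of variation of 13.7%, and p-values were adjusted by Benjamini-Hochberg over all genes. The interaction is the difference between EuMyc Max KO minus Max KO and EuMyc minus WT. A permutation of 3 against 3 libraries cannot go below p = 0.1 and was not used. DESeq2 1.42.0, limma-voom, other scalings, filters and libraries left out were alternatives, and the edgeR fit of the 3 contrasts was tested on simulated counts. The deviations of same-numbered libraries from their group means correlated at 0.0179, −0.117 and 0.143. With 3 libraries a group these values cannot settle whether the numbers pair the mice, and no pairing was used.

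The libraries compared and the 39 gene lists were chosen with earlier results of these data known. Genes were named by rule: the 12 highest and 12 lowest called genes with a mean of at least 5 CPM, no overlap between groups and a call without each EuMyc Max KO library, the 6 highest and 6 lowest of the interaction, up to 4 called genes of each list with the smallest p, and every network member. Some genes that the rule names are not reported here, and genes named outside it are marked in the text. Promoters came from RefSeq (GRCm38.p6) and gene positions from GENCODE vM21 (mm10).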

Additional observations from a re-analysis of the deposited data

Results flagged for a closer look

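The transgene effect differed with and without Max by the edgeR interaction term, taken as EuMyc Max KO minus Max KO less EuMyc minus WT, for 3586 genes that were higher and 3589 that were lower. Among the genes named in the text, the term on the log2 scale was negative for Enpep (−6.26), Rbm24 (−6.16), Uchl1 (−5.30), Ltbp4 (−4.54), Phgdh (−1.50), Cks1b (−1.45), Pa2g4 (−1.34), Myc (−1.21) and Cycs (−1.18). It was positive for Prg2 (6.75), Gcsam (6.46), Fras1 (5.47), Abcb1a (5.21), Ackr3 (5.04), S1pr2 (3.89), Mybl1 (2.15), Gadd45a (2.08), Nfkb2 (2.02), Mxd1 (1.75) and Cd74 (1.72). No group has 4 or more libraries, so single libraries were not tested as outliers.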

How the results depend on the processing

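No called gene of those named changed its direction under any alternative run. Against 1378 higher and 475 lower genes, limma-voom with sample quality weights called 2070 and 1570, a fit to only the 6 libraries compared called 692 and 159, and a fit without EuMyc Max KO replicates 1 and 2 together called 518 and 51. Fits that left out 1 library called 884 to 1837 higher and 121 to 1009 lower genes, and 3202 to 3827 higher and 3279 to 3648 lower in the interaction. Within 1.5 times of both counts were DESeq2 (1585 and 614), RLE factors (1409 and 452), upper-quartile factors (1215 and 695), library totals (1289 and 610), no filter (1308 and 404), a filter of at least 50 counts in 3 libraries (1328 and 490) and the erythroid list removed (1350 and 463). That last run took out only the listed genes before the fit, so it cannot show the part of erythroid RNA in other genes. A replicate block, in which same-numbered libraries were taken as paired, gave 1326 and 496. By their deviations EuMyc Max KO 1 correlated best with Max KO 2, EuMyc Max KO 2 with Max KO 1 and EuMyc Max KO 3 with Max KO 3. With 3 mice a group and transgenic libraries this far apart, a small change that was not called may still be present.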

Other observations

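Interferon response genes moved at few members and in both directions. Of 33 tested genes 4 rose (12.1%) and 1 fell (3.03%), shares near the 10.7% and 3.69% of all genes tested, with a median log2 fold change of 0.01 that became −0.03 with upper-quartile scaling, and none was called with EuMyc Max KO 3 alone. Rsad2, which encodes the antiviral protein viperin, stood at 332, 218 and 60.3 CPM in EuMyc Max KO, against 10.4, 21.7 and 8.63 CPM in Max KO. Isg20, an exonuclease gene, stood at 132, 87.7 and 31.9 CPM in EuMyc Max KO, against 13.2, 21.9 and 9.94 CPM in Max KO. Neither gene overlapped between the groups, where 17.2% of all genes tested were higher without overlap. Both had the library order of the erythroid genes, whose part in them was not tested. The call of Rsad2 was lost without Max KO 1 and without Max KO 3. Stat2, a transcription factor of interferon signalling, stood at 135, 152 and 150.4 CPM in EuMyc Max KO, against 178, 175 and 176 CPM in Max KO. It fell by 0.27 on the log2 scale.

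Of 20 tested genes of other E-box factors 2 fell (10%, against 3.69% of all genes tested) and none rose, with a median of −0.15. These were the clock genes Per1 and Per2, with log2 fold changes of −0.32 and −0.43 without Max and −1.04 and −1.54 with it. Both calls were lost without Max KO 1, without EuMyc Max KO 1 and without EuMyc Max KO 2, that of Per1 also without Max KO 2 and that of Per2 also without Max KO 3. Per2 stood at 39.1, 43.7 and 46.0 CPM in EuMyc Max KO, against 57.8, 52.0 and 63.1 CPM in Max KO, and averaged 5.98 ± 0.824 CPM in EuMyc and 17.4 ± 1.81 CPM in WT (SD, n = 3 each).

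Prg2, the eosinophil major basic protein, stood at 56.9, 48.9 and 5.82 CPM in EuMyc Max KO, against 1.19, 6.2 and 1.43 CPM in Max KO, where EuMyc Max KO 3 lay within the Max KO range. Its call was lost without Max KO 1, Max KO 3, EuMyc Max KO 1 or EuMyc Max KO 2. With Max present it averaged 0.851 ± 0.338 CPM in EuMyc and 7.18 ± 3.81 CPM in WT (SD, n = 3 each), and the interaction was 6.75 ± 1.38 (SE), with an edgeR adjusted p of 0.0025. Cpa3, a mast cell protease gene, stood at 0.920, 0.822 and 1.04 CPM in EuMyc Max KO, against 0.226, 0.256 and 0.229 CPM in Max KO.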
